A study of Bos taurus with 53 samples.

Results

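The insulin-like growth factor (IGF) family was followed in day 14 cattle embryos through 9 gene symbols. They were the ligands IGF1 and IGF2, the receptors IGF1R and IGF2R, and the binding proteins IGFBP2, IGFBP3 (spelled IgFBp3 in the gene table), IGFBP4, IGFBP5 and IGFBP7. Members were the rows of the table that carried one of these symbols, with case ignored, and 8 of the 9 were found among 24596 features. No row was named IGF1. A row named IGF-I, which RefSeq lists as a synonym of IGF1, held 0 reads in all 53 libraries. At 3 reads as the limit for a count of 0, this allows up to 0.0113 CPM (counts scaled to 1000000 exon reads) over all 265667384 exon reads, and limits and intervals of this kind cover counting error only.

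IGF1 and IGF2 are secreted growth factors that signal through the tyrosine kinase receptor IGF1R, while IGF2R binds IGF2 and carries it to lysosomes for breakdown. Binding proteins hold the ligands outside the cell, lengthen their life and keep them from the receptor until proteases cut them. In ruminants, ligands from the uterus and from the embryo are both present during the weeks before implantation, when the embryo grows from a sphere through an ovoid and a tubular form into a filament.

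The study's title places its question in the effect of lipotoxic oocyte maturation on embryos after hatching. Oocytes were matured in 1 of 3 media, fertilised and cultured in vitro, and transferred to recipient cows, from which embryos were collected on day 14. CONTROL medium held neither fatty acids nor their solvent. BASAL medium held 28 µM stearic, 23 µM palmitic and 21 µM oleic acid in 0.45% ethanol, and HIGH PA medium differed from it in palmitic acid, at 150 µM. Embryos were cut into an embryonic disc (ED) and extraembryonic tissue (EX), each sequenced as its own library. There were 12 BASAL, 8 HIGH PA and 3 CONTROL discs, 14 BASAL, 10 HIGH PA and 4 CONTROL extraembryonic samples, and 2 HIGH PA embryos with both tissues in 1 library. By shape, 15 discs came from tubular and 8 from ovoid embryos, and 17 extraembryonic samples came from tubular, 9 from ovoid and 2 from spherical embryos. The 30 embryos came from 7 cows in a crossover of BASAL and HIGH PA, and all CONTROL embryos came from 1 cow. Embryos of a cow shared a uterus, so they are not fully separate samples, and p-values rest on the spread between them.

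Disc libraries held between 6814 and 6167850 exon reads and extraembryonic libraries between 9810 and 19533821. Levels below leave out the 2 libraries under 10000 reads, both BASAL and both replicate 7 of their group, and so cover 22 discs and 27 extraembryonic samples. The summed level of 5 epiblast genes had a median of 72.7 CPM (range 3.20 to 227) in discs and 2.53 (0.410 to 170) in extraembryonic tissue. Disc libraries also carried RNA of trophectoderm markers, with a median sum over 10 genes of 14787 CPM against 20567 in extraembryonic libraries. Most of that sum came from the keratins KRT8 (medians 6291 in discs and 7943 in extraembryonic libraries) and KRT18 (5957 and 8401). It therefore follows keratin levels more than the other markers. Disc BASAL replicate 12 stood apart, with 3.20 CPM of epiblast and 1.20 of primitive streak and mesoderm markers. The extraembryonic library HIGH PA replicate 10, from a spherical embryo, carried 170 CPM of epiblast markers. In bulk tissue, fewer cells of a type and less RNA per cell cannot be told apart.

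The family's main axis of variation was the tissue. IGF2, IGF2R and the binding proteins IGFBP2, IGFBP3, IGFBP4 and IGFBP5 were lower in extraembryonic tissue than in the disc of the same embryo, and IGFBP7 was higher. IGF1R did not pass the test. Over 23 embryos with both parts, 7 of 8 members passed the quasi-likelihood test of edgeR, fitted with a term for each embryo, at an adjusted p under 0.05, 6 of them lower and 1 higher in extraembryonic tissue. The background is large: 55.3% of the 11921 genes tested were called, 30.8% as lower and 24.5% as higher. The median log2 fold change was −2.36 over the 8 members and −0.01 over all genes.

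**Figure D1:**
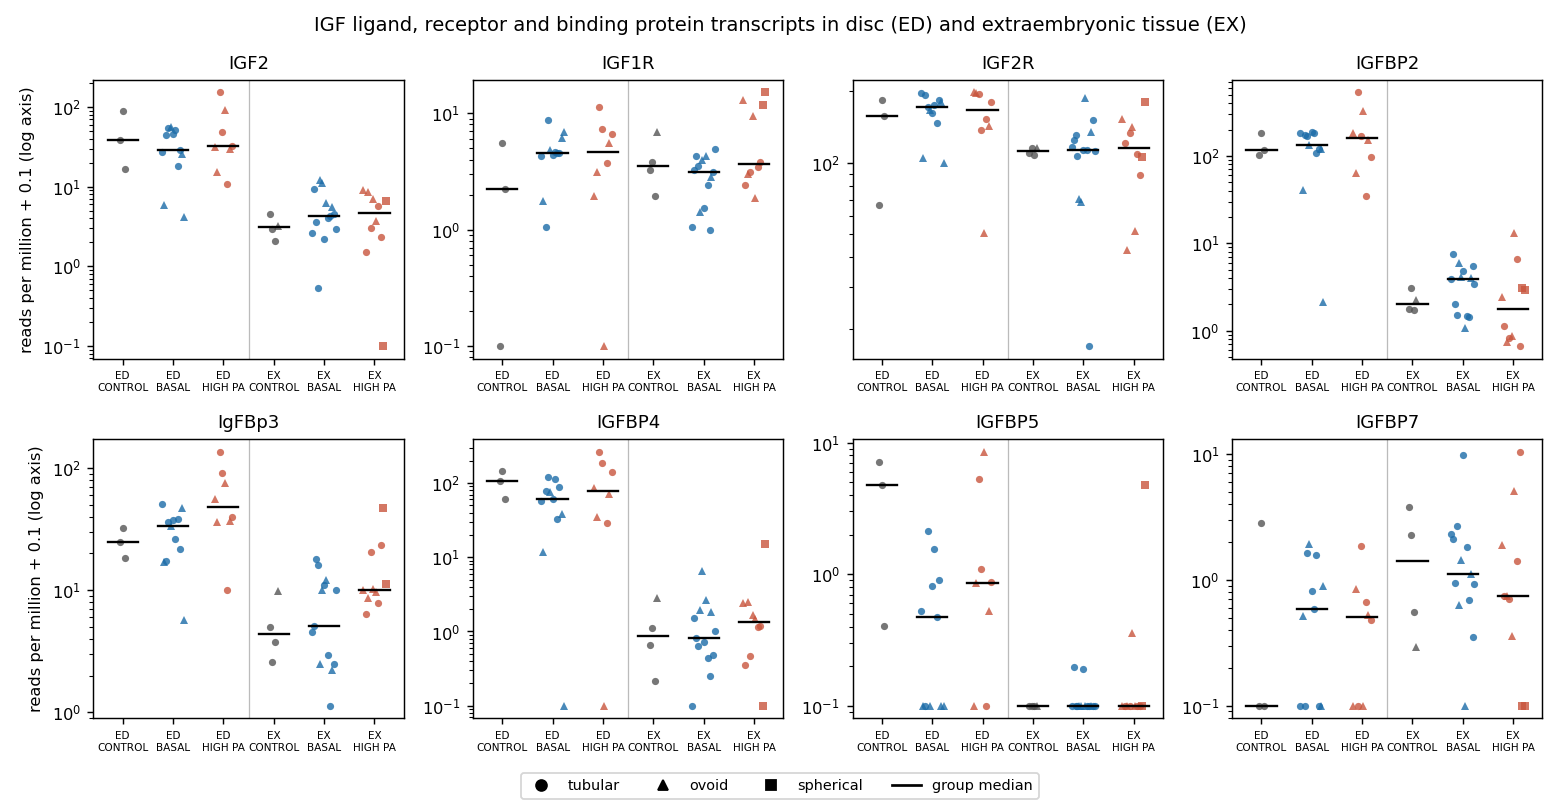
CPM plus 0.1 (log axis) of the 8 members in each library of at least 10000 reads, by tissue and medium; circles are tubular, triangles ovoid and squares spherical embryos, and bars are group medians. IGF2, IGFBP2 and IGFBP4 separate disc from extraembryonic libraries with few exceptions, while BASAL and HIGH PA overlap within each tissue for every member.

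IGF2 lies on chromosome 29 (50046625 to 50065230, UMD3.1, ENSBTAG00000013066) and is an imprinted growth factor gene. Its level in discs was lowest at 4.00, had a median of 31.96 and reached 152 CPM, against 0, 3.96 and 11.9 in extraembryonic tissue. Only the low end of the disc range met the extraembryonic range, and 19 of 22 discs were above every extraembryonic library. IGF2 was lower in the extraembryonic part in 20 of 22 embryos, and the exceptions were those of disc BASAL replicates 2 and 12. The fitted difference was −2.72 on the log2 scale (SE 0.30), 6.58-fold lower (edgeR adjusted p = 5.7e-09). The gene for insulin, INS, lies 9362 bases from IGF2 and held 0 reads in every library.

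The receptors changed little. IGF1R (chromosome 21, 8208821 to 8268093, ENSBTAG00000021527) had 0, 4.45 and 11.1 CPM as lowest, median and highest in discs and 0.887, 3.17 and 14.98 in extraembryonic tissue. The ranges overlapped almost fully, and the log2 difference of −0.36 (SE 0.22, 95% interval −0.79 to 0.08) had an adjusted p of 0.179 in edgeR. IGF2R (chromosome 9, 97638171 to 97740003, ENSBTAG00000002402) had 50.4, 170 and 198 CPM in discs and 16.9, 113 and 187 in extraembryonic tissue. It was lower in the extraembryonic part of 19 of 22 embryos, by 0.39 on the log2 scale (SE 0.16, edgeR adjusted p = 0.037). That call was the weakest of the 7 and was lost under several settings: with DESeq2 the log2 difference was −0.30 (adjusted p = 0.073), with no filter on low counts −0.36 (adjusted p = 0.051), and without the 7 libraries marked 2, described below, −0.20 (adjusted p = 0.098).

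IGFBP2 and IGFBP4 were far lower in extraembryonic tissue. IGFBP2 (chromosome 2, 105338357 to 105367369, ENSBTAG00000005596), a binding protein of fetal tissues that prefers IGF2, had 2.00, 142 and 534 CPM in discs and 0.563, 2.31 and 12.9 in extraembryonic tissue. All discs but BASAL replicate 12 (21 of 22) were above every extraembryonic library. The log2 difference was −5.45 (SE 0.36), 43.8-fold lower, with an edgeR adjusted p of 1.0e-13. IGFBP4 (chromosome 19, 41326677 to 41338255, ENSBTAG00000008611), a binding protein that mostly inhibits IGF action and is cut by the protease PAPPA, had 0, 74.0 and 262 CPM in discs and 0, 1.00 and 14.98 in extraembryonic tissue. It was above the extraembryonic range in 19 of 22 discs, and the 2 discs at 0 were BASAL replicate 12 and HIGH PA replicate 5, the latter with 119116 reads in all. The log2 difference was −5.87 (SE 0.48), 58.6-fold lower (edgeR adjusted p = 1.3e-11). The highest extraembryonic value, 14.98, came from HIGH PA replicate 10, the library with 170 CPM of epiblast markers.

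IGFBP3, the main carrier of IGFs in blood (chromosome 4, 76705104 to 76712709, ENSBTAG00000003994), ran from 5.60 through a median of 36.0 to 135 CPM in discs and from 1.04 through 9.60 to 47.1 in extraembryonic tissue. The ranges overlapped more than for IGFBP2, yet IGFBP3 was lower in the extraembryonic part of 21 of 22 embryos. The log2 difference was −2.01 (SE 0.26), 4.03-fold lower (edgeR adjusted p = 1.2e-07).

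IGFBP5 and IGFBP7 were the scarce members. IGFBP5, a matrix-bound binding protein (chromosome 2, 105378990 to 105397646, ENSBTAG00000007062), lies 11620 bases from IGFBP2 but gave 61 reads in the whole series against 8276 for its neighbour. In the 22 embryos with both parts at depth, discs held 51 IGFBP5 reads in 53007671 and extraembryonic parts 3 in 188602971, a ratio of 60.5 (exact 95% interval 19.6 to 303, counting error only). It was higher in the disc of 15 embryos, at 0 in both parts of 6, and higher in the extraembryonic part of 1, and its fitted log2 difference was −4.67 (SE 0.51), 25.4-fold lower (edgeR adjusted p = 5.9e-08). IGFBP7, which binds IGFs weakly and is made by vessel and stromal cells (chromosome 6, 74071066 to 74150456, ENSBTAG00000019368), went the other way. Its lowest, median and highest levels were 0, 0.417 and 2.72 CPM in discs and 0, 0.845 and 10.2 in extraembryonic tissue. Most values overlapped, but 17 of 22 embryos had more in the extraembryonic part, and the log2 difference was 1.55 (SE 0.42), 2.93-fold higher (edgeR adjusted p = 0.0025). Several of these 17 had a disc at 0, and disc libraries were the shallower ones. Over the 22 embryos, discs held 40 IGFBP7 reads in 53007671 and extraembryonic parts 562 in 188602971, a pooled level 3.95 times as high.

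**Figure D2:**
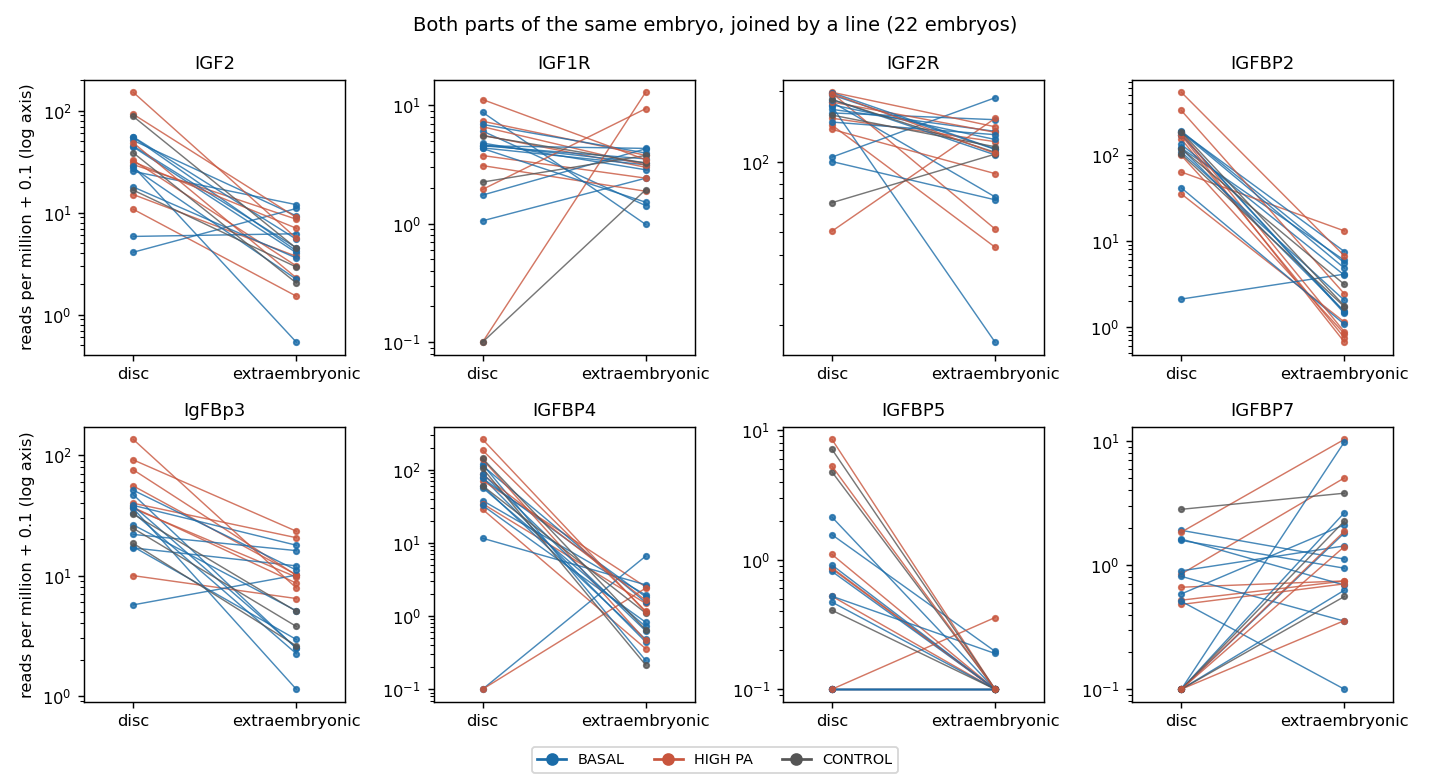
CPM plus 0.1 (log axis) of each member in the disc and the extraembryonic part of 22 embryos, joined by a line coloured by medium. Lines for IGF2, IGFBP2, IGFBP3 and IGFBP4 fall in 20 to 21 embryos each, IGF1R falls in 16, and IGFBP7 rises in 17.

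Leaving out disc BASAL replicate 12 kept all 7 calls, and IGF2 then differed by −2.88 on the log2 scale. Within tubular embryos alone 7 members were called and within ovoid embryos alone 4, a count from fewer samples. In ovoid embryos IGF2R, IGFBP5 and IGFBP7 lost their call, with adjusted p of 0.347, 0.127 and 0.416. IGF2R lost it within each medium too, where the adjusted p was 0.149 for BASAL, 0.234 for HIGH PA and 0.601 for CONTROL embryos. IGFBP7 also lost its call in BASAL embryos alone (log2 difference 1.24, adjusted p = 0.126) and in CONTROL embryos alone (1.67, adjusted p = 0.188). These subsets were added after the data had been seen.

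Per kilobase of exon, which allows genes to be compared, the order of median levels also differed between the tissues. In discs the order of CPM per kilobase was IGFBP2 at 125, IGFBP4 at 35.7, IGFBP3 at 22.7, IGF2R at 22.2, IGF2 at 8.20, IGF1R at 1.27, IGFBP5 at 0.578 and IGFBP7 at 0.371. IGFBP2 was above IGFBP4 in 22 of 22 discs, while IGFBP3 and IGF2R could not be ordered, with IGFBP3 higher in 12 of 22. In extraembryonic tissue IGF2R led at 14.8 and was above IGFBP3, at 6.06, in 25 of 27 libraries. IGFBP2 followed at 2.03, IGF2 at 1.02, IGF1R at 0.907, IGFBP7 at 0.753, IGFBP4 at 0.483 and IGFBP5 at 0. IGF2, IGF1R and IGFBP7 were not separated there, since IGF2 was above IGF1R in 14 of 27 libraries and IGF1R above IGFBP7 in 13.

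The 2 HIGH PA libraries that held both tissues of 1 embryo lay within the extraembryonic range for IGFBP2, IGFBP4 and IGF2. IGFBP2 was at 8.92 and 11.4 CPM, IGFBP4 at 2.87 and 7.82, and IGF2 at 0.711 and 6.37. For IGFBP2 and IGFBP4 these values were also inside the low end of the disc range, and for IGF2 the lower of the values was below it.

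The medium of oocyte maturation gave no called member in either tissue. For HIGH PA against BASAL, 0 of 7 members tested were called in discs and 0 of 7 in extraembryonic tissue by edgeR and by DESeq2, beside a background of 0% in both (0 of 11040 and 0 of 10969 genes in edgeR). IGFBP7 fell below the count filter in the disc fits and IGFBP5 in the extraembryonic fits, so 7 of 8 members entered each. At an unadjusted p under 0.05 there was 1 member in discs, IGFBP3, among 1004 genes, and 1 in extraembryonic tissue, IGF1R, among 531.

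IGFBP3 in discs ran from 5.60 through 33.3 to 51.1 CPM in 11 BASAL samples and from 9.87 through 47.6 to 135 in 8 HIGH PA samples. Of the HIGH PA discs, 4 of 8 were above every BASAL disc. The 3 CONTROL discs had 18.4, 24.6 and 32.3. The log2 difference of HIGH PA against BASAL was 1.26 (SE 0.36, unadjusted p = 0.0018, edgeR adjusted p = 0.451). The HIGH PA mean was the higher in 2 of the 3 cows with both media, and with cow as a block the log2 difference was 0.81 (adjusted p = 1.00). Without cow 07, where the HIGH PA mean was the lower at 27.5 against 32.1, the difference was 1.90 and passed (adjusted p = 0.024). The highest disc, HIGH PA replicate 3, was also highest for IGF2 (152), IGFBP2 (534), IGFBP4 (262) and IGF1R (11.1), and it held the least trophectoderm marker RNA (7175 CPM). Whether that makeup bears on its levels was not tested.

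IGF1R in extraembryonic tissue ran from 0.887 through 3.05 to 4.81 CPM in 13 BASAL samples and from 1.78 through 3.53 to 14.98 in 10 HIGH PA samples. The 4 CONTROL samples had 1.84, 3.16, 3.67 and 6.80. Medians were close, and 4 HIGH PA samples, 2 ovoid and 2 spherical, were above every BASAL sample. The log2 difference of 0.89 (SE 0.32, unadjusted p = 0.0091) had an edgeR adjusted p of 0.827, and with shape as a further term it was 0.58. The HIGH PA mean was higher in all 6 cows with both media. Cows 12 and 25 gave 1 HIGH PA sample each, both spherical (11.8 and 14.98 CPM). In cow 72, ovoid HIGH PA samples were set against 1 tubular BASAL sample. The single HIGH PA sample of cow 813, at 3.38, lay within that cow's BASAL range of 1.42 to 4.23.

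The other members moved within their spread between media. In discs the log2 differences of HIGH PA against BASAL were 0.73 for IGF2 (95% interval −0.20 to 1.67), 0.64 for IGFBP2 (−0.27 to 1.55) and 0.73 for IGFBP4 (−0.40 to 1.85), and each of these intervals includes 0. IGF2R was narrower, at −0.04 in discs (−0.45 to 0.37) and 0.02 in extraembryonic tissue (−0.40 to 0.45). Against CONTROL, edgeR and DESeq2 called no member in the 4 comparisons, beside 0% of genes in each in edgeR. An unadjusted p under 0.05 was found for IGFBP3 in HIGH PA against CONTROL in both tissues, with log2 differences of 1.13 in discs and 1.28 in extraembryonic tissue, and for IGFBP5 in BASAL against CONTROL discs. IGFBP5 there had 0.307, 4.66 and 7.02 CPM in the 3 CONTROL discs and at most 2.03 in 11 BASAL discs, so that 2 CONTROL discs were above all BASAL discs (log2 difference −2.48, SE 1.04, unadjusted p = 0.025, edgeR adjusted p = 1.00). That difference rests on 15 reads in CONTROL and 20 in BASAL discs. The test of the HIGH PA effect in one tissue against the other called 0 of 8 members and 0% of 11921 genes, with no member at an unadjusted p under 0.05 and none called by DESeq2.

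**Figure D3:**
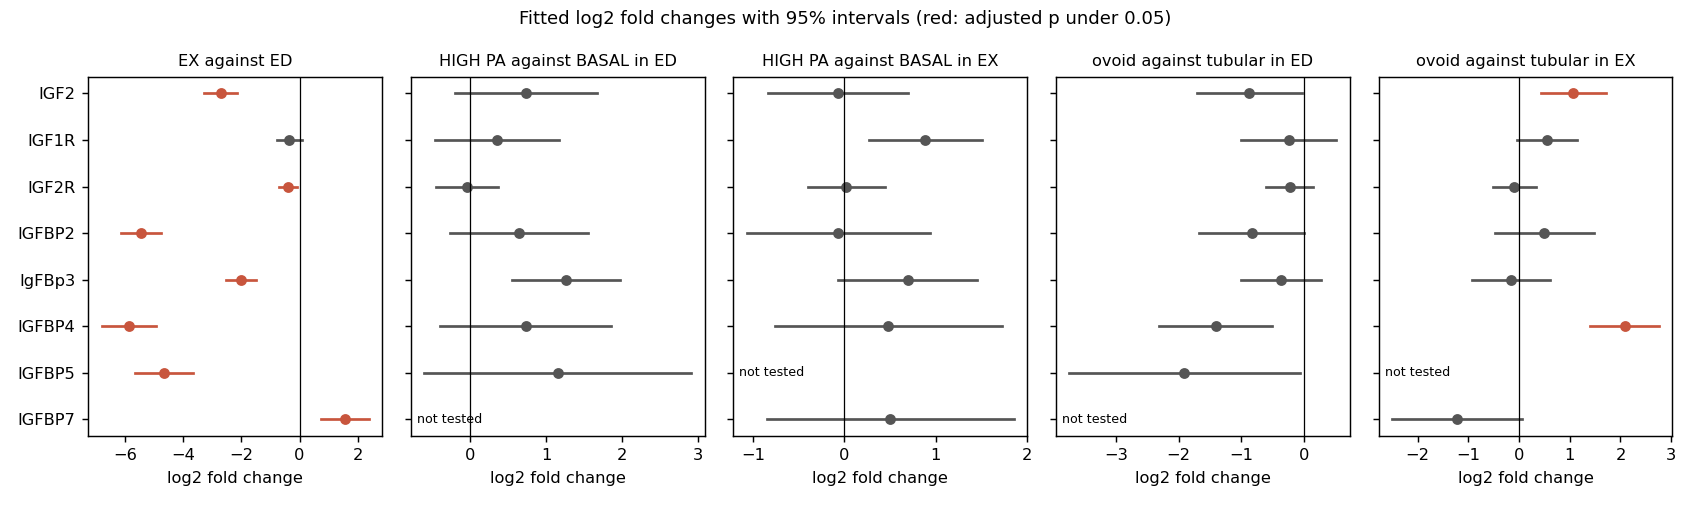
Fitted log2 fold changes with 95% intervals for 5 comparisons; red marks an adjusted p under 0.05 over all genes, and scales differ between panels. The tissue comparison holds 7 called members, ovoid against tubular in extraembryonic tissue holds 2, and the HIGH PA panels hold none.

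Embryo shape separated extraembryonic samples in 2 members. IGFBP4 and IGF2 were higher in ovoid than in tubular embryos, with medium and sex in the model, and the other 5 members tested did not pass. These 2 of 7 members, both higher, stand beside a background of 6.94% of 10969 genes called as higher and 5.73% as lower, or 12.7% in all.

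IGFBP4 was lowest at 1.39, had a median of 2.31 and was highest at 6.52 CPM in 9 ovoid samples, against 0, 0.538 and 1.44 in 16 tubular samples. The ranges met only at their ends: 8 of 9 ovoid samples were above every tubular sample. The log2 difference was 2.08 (SE 0.35), 4.24-fold higher (edgeR adjusted p = 0.0019). It rests on 147 reads in ovoid and 99 in tubular samples. In all 4 pairs of cow and medium that yielded both shapes, every ovoid sample was above every tubular one: 1.85 against 0.344 in BASAL embryos of cow 07, 1.39 and 2.42 against 0.259 in its HIGH PA embryos, 1.73 against 0.381 and 1.44 in BASAL embryos of cow 12, and 2.72 against at most 1.00 in CONTROL embryos of cow 813. The spherical samples lay at opposite ends, at 0 and 14.98, and in IGF2 at 0 and 6.55.

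IGF2 ran from 3.11 through 6.95 to 11.9 CPM in ovoid and from 0.440 through 2.89 to 9.22 in tubular samples. The groups overlapped, with 2 of 9 ovoid samples above all tubular ones. The log2 difference was 1.07 (SE 0.33), 2.10-fold higher (edgeR adjusted p = 0.037), and with DESeq2 it was 1.03 and not called (adjusted p = 0.076). Ovoid samples were above all tubular ones in 2 of the 4 pairs of cow and medium. The remaining log2 differences were 0.55 for IGF1R, 0.50 for IGFBP2, −0.09 for IGF2R, −0.16 for IGFBP3 and −1.23 for IGFBP7 (95% interval −2.51 to 0.06).

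**Figure D4:**
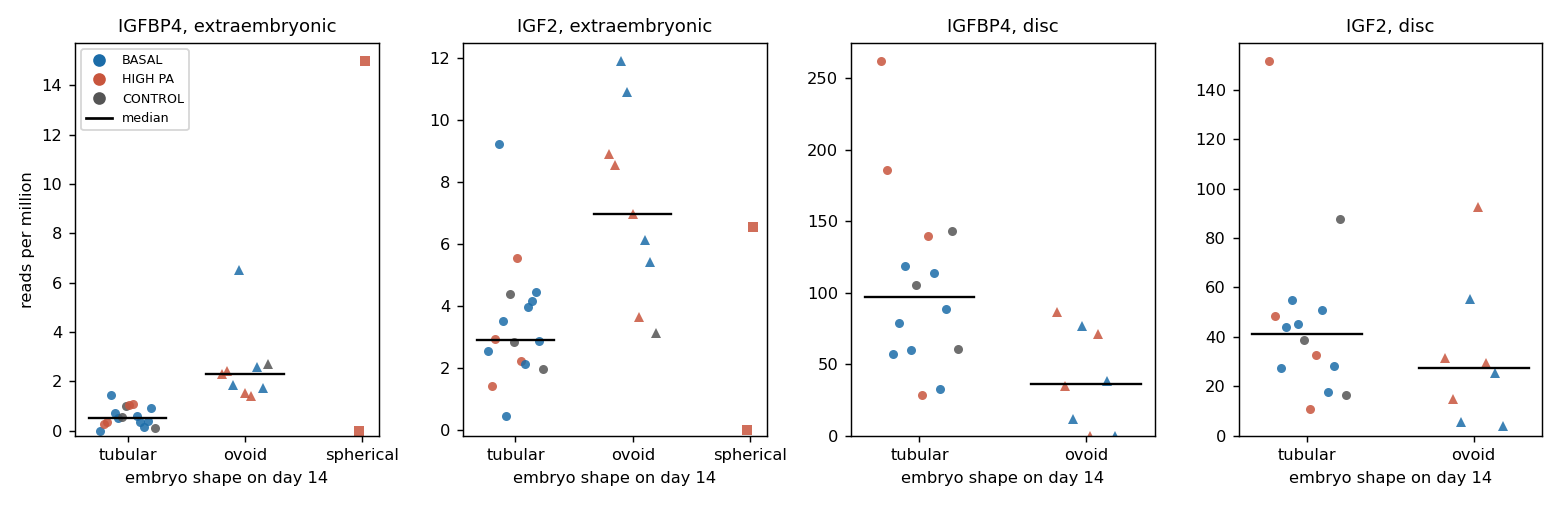
CPM of IGFBP4 and IGF2 by embryo shape in extraembryonic tissue (left pair of panels) and discs (right pair), coloured by medium, with bars at the medians of tubular and ovoid groups. In extraembryonic tissue 8 of 9 ovoid samples exceed every tubular sample for IGFBP4. For IGFBP4 in discs, the ovoid values lie in the lower part of the tubular range or below it. IGF2 in discs runs from 4.00 to 92.3 CPM in ovoid and from 10.7 to 152 in tubular embryos.

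Other features of these libraries moved with shape. The names of 7 extraembryonic libraries carry a mark 2, whose meaning the labels do not give, and it was on 5 of 9 ovoid, 1 of 17 tubular and 1 of 2 spherical samples. With the mark as a further term the log2 difference was 1.92 for IGFBP4 (adjusted p = 0.062) and 0.64 for IGF2 (adjusted p = 0.385), and neither was called. Without the marked libraries it was 1.63 for IGFBP4 (adjusted p = 0.071) and 0.68 for IGF2 (adjusted p = 0.376). Shape was also uneven over cows and sequencing lanes: with cow as a block the differences were 2.09 (adjusted p = 0.232) and 1.01 (adjusted p = 0.363), and with lane as a term 2.45 (adjusted p = 0.094) and 1.17 (adjusted p = 0.169). Without cow 66, which gave only ovoid samples here and the highest ovoid value, IGFBP4 differed by 1.62 (adjusted p = 0.060) and IGF2 by 1.06 (adjusted p = 0.149). Without cow 813 they differed by 2.15 (adjusted p = 0.059) and 1.19 (adjusted p = 0.122), and without cow 07 IGF2 differed by 0.87 (adjusted p = 0.252) while IGFBP4 passed at 2.19 (adjusted p = 0.019). Within 1 medium, the IGFBP4 difference was 2.25 in BASAL (adjusted p = 0.087) and 1.35 in HIGH PA embryos (adjusted p = 0.271), and IGF2 was not called in either. The difference kept its sign in all of these fits, but no call over all genes was left for either gene in the fits with mark, lane or cow as a term.

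Disc markers were somewhat higher in ovoid extraembryonic samples. Over 5 epiblast genes the sum ran from 1.55 through 5.25 to 24.2 CPM in ovoid and from 0.410 through 2.09 to 6.17 in tubular samples, with PRDM14 at 0 in all ovoid and SOX2 at 0 in all tubular samples. Over 9 streak and mesoderm genes it ran from 1.03 through 5.16 to 14.2 against 0.947 through 2.21 to 12.5, and T and GSC were at 0 in both groups. The sum of 10 hypoblast genes had medians of 648 in ovoid and 691 in tubular samples, most of it from APOA1 (medians 561 and 631). Single hypoblast genes went either way: medians were higher in ovoid samples for GATA4 (22.9 against 14.2), PDGFRA (24.7 against 10.7), SOX17 (10.4 against 7.63) and FOXA2 (1.45 against 0.989), and lower for HNF4A (6.52 against 10.1). The share of reads from mitochondrial genes had a median of 4.37% in ovoid and 3.49% in tubular samples. Their part in the IGFBP4 and IGF2 differences was not tested.

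In discs the shape comparison called no member and 0% of 11040 genes in edgeR, with 806 genes and 1 member at an unadjusted p under 0.05. DESeq2 called 16 genes and no member. IGFBP4 was the 1 member, and its fitted difference had the opposite sign to that in extraembryonic tissue. Ovoid discs ran from 0 through 36.2 to 86.9 CPM and tubular discs from 28.8 through 97.0 to 262. Every ovoid disc was below the tubular median, and 8 of 14 tubular discs were above all ovoid ones. The log2 difference was −1.41 (SE 0.46, unadjusted p = 0.0052, edgeR adjusted p = 0.561). The ovoid discs BASAL replicates 2 and 12, the lowest of all discs in streak markers, had 11.5 and 0. IGF2 differed by −0.87 (SE 0.43, edgeR adjusted p = 0.689), with medians of 27.5 in ovoid and 41.4 in tubular discs. Both differences were close to 0 with cow as a block, at −0.05 for IGFBP4 and −0.04 for IGF2, and without cow 66, which gave only ovoid discs, they were −0.93 and −0.44. Only 3 pairs of cow and medium yielded discs of both shapes, and they were split. In BASAL embryos of cow 07 the ovoid disc was lower for IGFBP4 (38.02 against 78.6 CPM) and IGF2 (25.3 against 44.1). In its HIGH PA embryos both ovoid discs were higher for IGFBP4 (34.5 and 71.4 against 28.8) and IGF2 (14.99 and 29.6 against 10.7). In BASAL embryos of cow 12 the ovoid disc lay between the tubular ones for IGFBP4 and above them for IGF2.

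The difference between the tissues in the ovoid effect was tested in 46 libraries with embryo as a block. It was 3.70 on the log2 scale for IGFBP4 (SE 0.74, unadjusted p = 3.1e-05) and 2.06 for IGF2 (SE 0.46, unadjusted p = 0.00015). Neither passed over all genes in edgeR (adjusted p = 0.089 and 0.091), where 0% of 11921 genes did and 1707 had an unadjusted p under 0.05. DESeq2 called both (adjusted p = 0.0076 and 0.012), as 2 of 67 genes. Without disc BASAL replicate 12 the values were 2.90 (adjusted p = 0.047) and 1.73 (adjusted p = 0.238), and without replicates 2 and 12 they were 2.54 (adjusted p = 0.209) and 1.52 (adjusted p = 0.592).

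IGF2R did not differ by shape but varied with the library mark. In the 7 marked extraembryonic libraries its level was lowest at 16.9, had a median of 68.6 and reached 180 CPM, against 88.8, 116 and 187 in the 20 others. Of the marked libraries, 5 were below all of the others, and 4 of these, 1 tubular and 3 ovoid, had the highest mitochondrial shares of all, up to 17.6%, against at most 5.74% in unmarked libraries. Mark, mitochondrial share and shape overlap in these samples, and their parts in the IGF2R level were not tested.

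**Figure D5:**
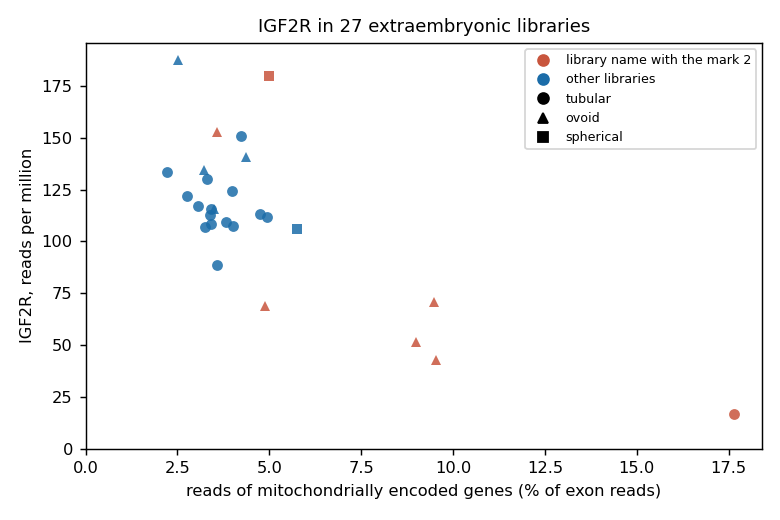
IGF2R in CPM against the share of exon reads from mitochondrially encoded genes in 27 extraembryonic libraries; red marks libraries with a 2 in their name, and symbols give embryo shape. The marked libraries reach from 16.9 to 180 CPM, and the 4 with the highest mitochondrial share lie between 16.9 and 70.6.

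By sex, discs were 6 female and 17 male, and extraembryonic samples with a determined sex were 8 female and 19 male. Sex gave no called member: 0 of 7 in discs, beside 0.0543% of genes, and 0 of 7 in extraembryonic tissue, beside 0.903%. No member had an unadjusted p under 0.05 in either tissue, and DESeq2 called none.

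Members varied together to different degrees. Across 22 discs, Spearman's rho of log2 CPM was 0.82 between IGF2 and IGFBP2, 0.65 between IGF2 and IGFBP4, and 0.14 between IGF2 and IGF2R. Across 27 extraembryonic samples it was 0.24, 0.59 and 0.14 for the same pairs, and 0.64 between IGF1R and IGFBP4. These values describe libraries that share cows, depth and the amount of disc or trophectoderm tissue. Among the 9782 genes compared in discs, those most like each member were SUGP2 for IGF2 (rho 0.93), PYGL for IGFBP2 (0.90), TF for IGFBP4 (0.92), MICU2 for IGFBP3 (0.87), MESP2 for IGFBP5 (0.91), ADGRF5 for IGF2R (0.81) and RPS6KA6 for IGF1R (0.75). TF, which encodes transferrin, was also on the list of hypoblast markers, and MESP2 encodes a factor of paraxial mesoderm. IGFBP5 gave 61 reads in the whole series. With a prior count of 1, discs without an IGFBP5 read were ordered by their depth. How much of the match to MESP2 follows from depth was not tested. In extraembryonic tissue, with 9629 genes compared, they were WDR83OS for IGF2 (0.78), MKRN1 for IGF1R (0.86), PURB for IGF2R (0.89), SIRT5 for IGFBP2 (0.69), MAFF for IGFBP3 (0.83), ABHD12 for IGFBP4 (0.82) and ANXA3 for IGFBP7 (0.79).

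The pathway around the members was read from 84 listed genes, of which 64 were tested between the tissues. In extraembryonic tissue 16 of them were higher and 21 lower (median log2 fold change −0.02, against −0.01 over all genes), close to the background shares given above. The 6 tested proteases of binding proteins and their inhibitors had 4 lower and 1 higher. Lower were MMP2, a matrix protease, by 7.98 on the log2 scale, STC2, an inhibitor of PAPPA, by 6.70, HTRA1 by 6.31 and STC1 by 1.72. PRSS23 was higher by 0.84. PAPPA itself did not reach the count filter. Of 3 IGF2 mRNA binding proteins, IGF2BP2 was lower by 4.20 and IGF2BP1 higher by 0.34. Among other receptors and binding proteins, the insulin receptor INSR was lower by 1.06 and IGFBPL1 by 3.68. IGFBP6, the binding protein with the strongest preference for IGF2, differed by −0.02 (SE 0.31), and IGFBP1, which lies 8172 bases from IGFBP3, gave 9 reads in the whole series.

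Downstream of the receptors the differences were mostly small. Of 14 tested adaptors and phosphatases 5 were lower, GRB14 by 3.31, IRS2 by 1.97 and GRB10 by 0.57 on the log2 scale among them, and 3 were higher. Of 24 genes of the PI3K, AKT, mTOR and FOXO branch 7 were lower and 5 higher, with FOXO4 lower by 5.82 and FOXO1 by 4.59, both transcription factors held back by AKT, and AKT1 higher by 0.46. Of 8 genes of the RAS and ERK branch BRAF was lower by 0.69 and 3 were higher. On the mannose 6-phosphate route, which IGF2R also serves, GNPTAB was lower by 0.74 and 3 of 5 genes were higher, M6PR by 0.24.

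Between ovoid and tubular extraembryonic samples 2 of 55 tested pathway genes were higher and 7 lower, against background shares of 6.94% and 5.73%. The higher ones were ARAF (0.43 on the log2 scale) and M6PR (0.29). Those lower included PIK3CB by 0.91 and IGF2BP3 by 0.61. In the medium comparisons edgeR called none of the 58 pathway genes tested in discs or the 55 in extraembryonic tissue. At an unadjusted p under 0.05 there were 2 to 8 of them in a comparison in discs and 1 to 4 in extraembryonic tissue, and DESeq2 called at most 1 gene of the whole table in any of the 6 comparisons.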

How the data were processed

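Members and lists were chosen with earlier results of these data known. The authors deposited whole-number counts of exon reads per gene, per the file headers, from stranded mRNA libraries read as 2 x 50 bases, per the labels' protocols. The build UMD3.1 and DESeq2 1.10.1 are named in the submitters' processing notes; an aligner was not given in the sources used here. Exon lengths and coordinates, also deposited per the file headers, are other values of the same table. All member reads were uniquely placed.

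Total exon counts entered edgeR 4.0.16 (R 4.3.3) with TMM scaling, filterByExpr by tissue and medium, glmQLFit and glmQLFTest, and Benjamini-Hochberg adjustment over all genes tested (threshold 0.05). Standard errors were derived from the F statistic as log2 fold change / √F. Tissues were compared with embryo as a block, a pairing taken from the embryo named in the labels, media and sexes with both as terms, and shapes with shape added. A fit within a tissue leaves out samples of undetermined sex, 1 in extraembryonic tissue. Fits keep the shallow libraries that levels leave out. Levels (CPM) are counts scaled to 1000000 exon reads of the library, and correlations used a prior count of 1. Alternatives included DESeq2 1.42.0, other scaling, no filter, uniquely placed reads, cow, lane and mark as terms, and left-out cows or libraries. Scripts were tested on simulated data. Genes named outside the family were the called genes of lowest p in each list, up to 3 a direction, and the gene most like each member. HTRA1 was named beyond that limit. Figures used matplotlib 3.10.9.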

Additional observations from a re-analysis of the deposited data

Results flagged for a closer look

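A value far from the rest of its group was looked for in 39 groups of 4 to 10 libraries, and 13 groups had one. The cut-off marks about 1 in 20 groups only where values are normally distributed and groups are separate. Here counts can be as low as 1 read, and groups by medium and by shape share libraries. The number of groups with a far value was therefore not set against that rate. Such values were few in reads for IGFBP5: 4.68 CPM in extraembryonic HIGH PA replicate 10 (5 reads), 8.40 in disc HIGH PA replicate 5 among ovoid discs (1 read), and 0.257 in extraembryonic HIGH PA replicate 5 among ovoid samples (1 read). IGFBP4 was far above its group at 14.98 in extraembryonic HIGH PA replicate 10 (16 reads) and at 6.52 in extraembryonic BASAL replicate 6 among ovoid samples (49 reads). IGFBP2 stood out at 12.9 in extraembryonic HIGH PA replicate 6, both among HIGH PA and among ovoid samples (167 reads), and IGFBP7 was at 4.95 in the same library among ovoid samples (64 reads). IGFBP3 reached 47.1 in extraembryonic HIGH PA replicate 9 (16 reads). IGFBP7 reached 10.2 in extraembryonic HIGH PA replicate 8 (200 reads), 1.75 in disc HIGH PA replicate 4 (7 reads) and 1.81 in disc BASAL replicate 5 among ovoid discs (5 reads). IGF2R was far below its group at 50.4 in disc HIGH PA replicate 5 (6 reads), a library of 119116 reads.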

How the results depend on the processing

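Over 219 alternative fits, 1522 of 1557 member results kept their side of the threshold, 29 lost a call, 6 gained one, and no called value changed sign. Lane as a term, fits without marked libraries, shape fits without medium and sex, and tissue fits within 1 medium or shape were chosen after seeing the data. The count of 7 members called between the tissues was 4 in ovoid embryos alone and between 5 and 7 elsewhere. With no replicate block in place of the pairing by embryo it was 7. For ovoid against tubular in extraembryonic tissue, the count of 2 became 0 with cow as a replicate block, with lane or mark 2 as a term, without marked libraries, without cow 66 or cow 813, and in BASAL or HIGH PA embryos alone, and it became 1 with DESeq2 and without cow 07. The cause was not tested, though the subsets hold fewer samples. For the ovoid effect between tissues, the count of 0 became 2 with DESeq2 and with no filter, and 1 without disc BASAL replicate 12. For HIGH PA against BASAL in discs it became 1 without cow 07, through IGFBP3 (log2 difference 1.90, adjusted p = 0.024). With the cow block no other call changed. CONTROL could not be compared without cow 813, its only source. Depth limits IGFBP5 and IGFBP7 most, with 61 and 621 reads in all.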
